A study of Mus musculus with 17 samples.

Results

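Methylation was described at 115 CCCGGG sites in genes of the Fox, Sox and Gata families of transcription factors, out of 18884 autosomal sites tested in whole blood of 17 mice. The sites were those with at least 50 reads in at least 13 mice that lay between 1000 bases before the transcription start and the gene end of 46 listed genes, in the GENCODE M1 annotation of the mm9 genome. Of the 46 genes, 34 had at least 1 such site. Fox genes held 66 sites in 19 of 26 genes, Sox genes 37 sites in 12 of 17 genes, and Gata genes 12 sites in all 3 genes. Foxb2, Foxd3, Foxi1, Foxp1, Foxp2, Foxq1, Sox7, Sox17 and Sox18 had CCCGGG sites that did not reach the read minimum. Foxs1 and Sox15 had no listed site in their windows, and Sox1 had no annotation entry under that name.

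Fox proteins bind DNA through a forkhead domain, Sox proteins through an HMG box related to that of SRY, and Gata proteins through zinc fingers that read GATA motifs. Most of the listed genes direct the formation of organs in the embryo, such as Foxa1 and Foxa2 in endoderm, Sox2 in stem cells and the nervous system, and Gata4 and Gata6 in the heart and gut, and are not known as regulators of blood cells. The starts of such genes commonly lie in long CpG islands (CGI), stretches rich in CpG that are usually unmethylated, and in cells that do not use the genes these islands are often held by Polycomb complexes. Foxk1, Foxk2 and Foxp4 are widely expressed members, and Foxn1 acts in the epithelium of the thymus and in hair follicles.

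Whole blood came from C57BL/6 mice, an inbred strain. The 5 AL-young mice (2 females, 3 males) were fed ad libitum (AL) and were 4 months old, the 7 AL-old mice (5 females, 2 males) were fed ad libitum and were 29 to 33 months old, and the 5 CR-old mice (2 females, 3 males) were under caloric restriction (CR) and were 32 to 38 months old. DREAM (Digital Restriction Enzyme Analysis of Methylation) cuts DNA with SmaI, which methylation blocks, and then with XmaI, which cuts the same CCCGGG either way, so that each read tells whether its site was methylated. The 2 old groups differed in age range and in sex mix as well as in diet.

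Reads at genomic sites numbered between 6407519 and 51612805 per mouse. The deposited tables gave methylation as counted (raw) and after adjustment to spiked DNA standards. At well-covered sites of intermediate methylation, the adjustment multiplied the odds of methylation in each mouse by 1 correction factor. This factor lay between 0.896 and 1.13 in AL-young mice. All 5 AL-old females (1.40 to 3.96) and CR-old 06 (1.80) had a factor of 1.3 or more, here called high, so that in the AL-old group a high factor and female sex cannot be told apart. Raw methylation understated that of the standards in these 6 mice. Values are raw unless called adjusted, and adjusted ones are added for results that the scale changes. No called site changed direction between the scales. In whole blood, a change of methylation within cells and a change in the share of cell types cannot be told apart.

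Among the 115 sites, 99 lay in CpG islands and 16 outside. The islands were almost free of methylation in the young: 94 of the 99 island sites had an AL-young mean below 5%. Island sites in general were alike in this, with 93.4% of all tested island sites below 5%. The 10 sites with an AL-young mean above 60% all lay outside islands, in gene bodies of Foxk1, Foxn1, Sox5 and Gata4. By position, 21 sites were upstream, 20 in 5′ UTRs, 45 in coding exons, 20 in introns, 6 in 3′ UTRs and 3 in exons of a transcript without coding annotation. Within the 500 bases around a site the member sites held a median of 45 CpGs and 67.2% GC, against 32 CpGs and 62.2% GC over all tested sites. Sites are named here by gene and by the signed distance in bases from the nearest annotated start of any transcript of that gene, so a negative number can lie inside a gene with a second start.

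The sequences below are those of sites with the largest called differences, with a second Sox9 site that was also called with diet, on the strand of the gene in NCBIM37 (mm9), with the CCCGGG that was measured in capitals. They are shown so that the CpG content around gaining and losing sites can be read directly: the 100-base windows of gaining sites held 10 to 18 CpGs, that of Foxn1 +1553 held 7 and that of Foxk1 +17967 held 2. Windows that touch an untranslated region are cut to 30 bases.
Sox11 -231, chr12:28027756-28027855, minus strand: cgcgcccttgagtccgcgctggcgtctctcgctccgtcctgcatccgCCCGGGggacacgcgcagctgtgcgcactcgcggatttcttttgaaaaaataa
Foxa1 +3018, chr12:58644041-58644140, minus strand: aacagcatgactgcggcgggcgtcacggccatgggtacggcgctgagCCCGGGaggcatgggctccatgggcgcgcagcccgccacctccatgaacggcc
Foxe1 +1153, chr4:46357585-46357684, plus strand: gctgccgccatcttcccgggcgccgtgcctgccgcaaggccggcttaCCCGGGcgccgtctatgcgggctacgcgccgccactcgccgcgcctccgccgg
Foxd1 +1438, chr13:99125589-99125688, plus strand: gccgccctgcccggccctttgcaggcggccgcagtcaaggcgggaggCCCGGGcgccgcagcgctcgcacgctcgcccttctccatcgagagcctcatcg
Sox2 +836, chr3:34549845-34549944, plus strand: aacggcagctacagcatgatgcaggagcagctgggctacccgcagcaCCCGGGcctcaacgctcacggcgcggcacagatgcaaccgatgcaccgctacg
Foxl2 +1006, chr9:98856983-98857082, plus strand: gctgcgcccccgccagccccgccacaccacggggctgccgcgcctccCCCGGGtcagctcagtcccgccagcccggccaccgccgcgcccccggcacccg
Sox9 +165, chr11:112643689-112643718, plus strand: cgactcgccttcCCCGGGtttagagccggc
Sox9 +350, chr11:112643874-112643903, plus strand: cccgccccctgcCCCGGGctcgcgtatgaa
Gata4 -8, chr14:63864102-63864131, minus strand: gctacgcgggggCCCGGGgaaccgcgccgg
Foxn1 +1553, chr11:78198458-78198557, minus strand: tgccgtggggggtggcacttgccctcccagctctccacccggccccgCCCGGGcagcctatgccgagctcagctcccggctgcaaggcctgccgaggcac
Foxk1 +17967, chr5:142895389-142895488, plus strand: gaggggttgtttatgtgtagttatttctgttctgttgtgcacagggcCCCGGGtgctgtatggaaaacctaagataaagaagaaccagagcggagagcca

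The first comparison asked which of these sites differed between old and young mice on the same ad libitum diet. In edgeR's quasi-likelihood test on methylated and unmethylated reads, a site was called at a Benjamini-Hochberg adjusted p under 0.05 over all 18884 sites with raw group means at least 2 points apart. Of the 115 member sites, 18 in 9 genes were called higher in AL-old (15.7%), against 3.95% of all tested sites. Within islands it was 17 of 99 (17.2%), against 5.52% of all tested island sites. Hypermethylation was thus called in Foxa1, Foxd1, Foxe1, Foxl2, Sox2, Sox9, Sox11, Gata4 and Gata6. In Fox genes 9 of 66 sites were called higher, in Sox genes 6 of 37 and in Gata genes 3 of 12. The median difference over the member sites was 0.625 points, against -0.0174 points over all tested sites, and on the adjusted scale 1.87 against 0.187 points.

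**Figure D1:**
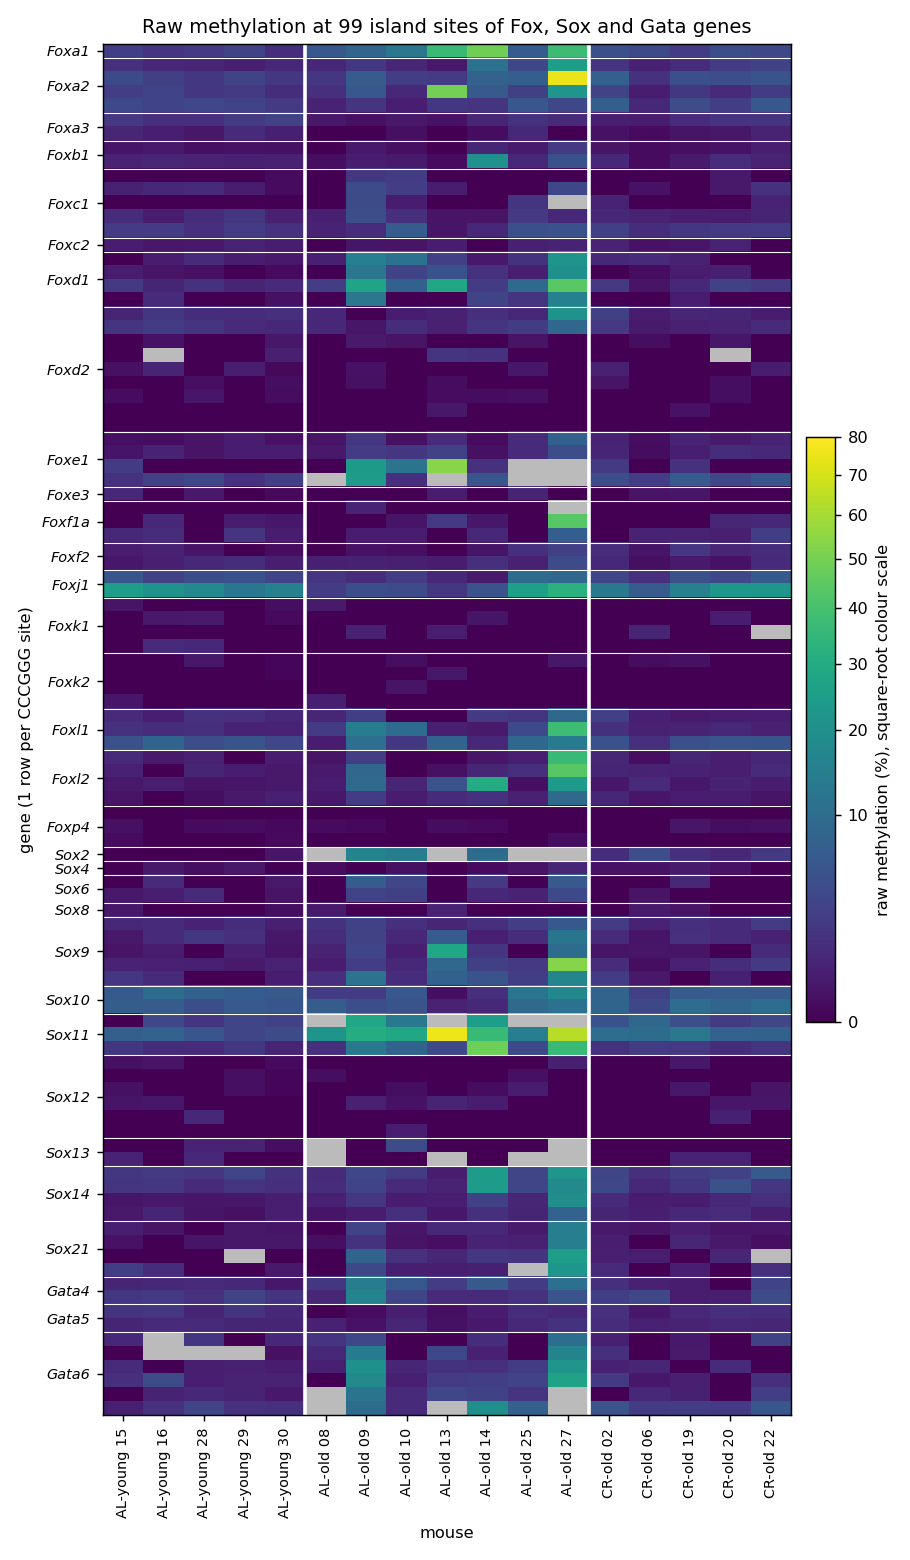
Raw methylation in percent (square-root colour scale) at the 99 island sites, 1 row per site grouped by gene, and 1 column per mouse, with grey for fewer than 50 reads. The AL-young and CR-old columns are dark in nearly every row, and brighter cells stand in the AL-old columns, in different genes for different mice and most often in AL-old 27.

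Among Fox genes, the largest gain was in Foxa1, a pioneer factor that opens chromatin in endoderm. Raw methylation at Foxa1 +3018 (12: 58644088 to 58644093, coding exon, in an island of 1216 bases) was 2.74, 1.91, 2.28, 3.35 and 1.35% in the AL-young mice. In the 7 AL-old mice the lowest value was 5.91%, the median 12.6% and the highest 49.0%. All AL-old mice lay above all AL-young mice, and the AL-old group was spread more than 8-fold. The means were 2.33% ± 0.766 (SD, n = 5) and 22.4% ± 18.0 (SD, n = 7), with a log2 odds ratio of 3.24 ± 0.72 (SE) and an adjusted p of 0.000892 (edgeR). Foxa1 +2677, in an intron and outside the islands, was also called, from 1.63% ± 0.835 to 7.87% ± 6.76. Foxa1 +2511, the site of this gene nearest to a start, was not called (adjusted p = 0.861, edgeR), with 18.4% in AL-old 27 and between 0.337 and 10.2% in the other AL-old mice.

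Foxd1, which acts in the stroma of the developing kidney and in the retina, was the only gene here with 4 called sites, and those were all of its sites. All 4 lay in the coding exon, in an island of 2482 bases, and their AL-old means lay between 4.75 and 17.5%, against 0.189 to 1.38% in AL-young. At Foxd1 +1438 (13: 99125636 to 99125641) the AL-young values were 2.30, 0.877, 1.61, 0.873 and 1.23%. The AL-old values ran from 2.58% through a median of 9.44% to 44.4%, and did not overlap with the young, although AL-old 08 and AL-old 14 were within 1 point of them. The log2 odds ratio was 3.35 ± 0.78 (SE) with an adjusted p of 0.00176 (edgeR).

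Foxe1, a thyroid factor, was called at 1 of 4 sites. Foxe1 +1153 (4: 46357632 to 46357637, coding exon) read 2.38% in AL-young 15 and 0% in the other AL-young mice. In the 5 AL-old mice with enough reads it was 0, 23.6, 11.7, 53.9 and 1.61%, so that AL-old 08 and AL-old 14 stayed within the young range (log2 odds ratio 5.08 ± 1.09 SE, adjusted p = 0.000613, edgeR). AL-old 25 and AL-old 27 had 32 and 34 reads here and have no percentage, though their reads entered the fit. The CCCGGG 33 bases before it, Foxe1 +1120, stands in lower case in the printed sequence, and its AL-old mean was 1.95%, against 18.2% ± 22.1 (SD, n = 5) at +1153. Sites 33 bases apart thus differed in mean, over partly different mice.

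Foxl2, known for its role in the ovary, was called at +1006 in the coding exon and at +1220 in the 3′ UTR. At +1006 (9: 98857030 to 98857035) the AL-young mice lay between 0.230 and 0.488%. The AL-old lowest, median and highest were 0.139, 5.16 and 30.5%, and AL-old 25 lay below every young mouse. The means were 0.339% ± 0.101 (SD, n = 5) and 9.95% ± 12.1 (SD, n = 7), with an adjusted p of 0.00420 (edgeR). The call was lost with the high factor as a covariate and with the low-factor mice alone (adjusted p up to 0.0932, edgeR). The upstream Foxl2 sites were not called: at -508 AL-old 27 had 43.6% and AL-old 09 8.63%, and the other 5 AL-old mice had at most 1.52%.

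Among Sox genes, Sox11, which acts in developing neurons, was called at all 3 of its sites and showed the largest difference of all 115 sites. Sox11 -231 (12: 28027803 to 28027808, upstream, in an island of 2754 bases) read 7.35, 7.83, 5.81, 3.49 and 4.14% in the AL-young mice. The AL-old lowest, median and highest were 14.6, 30.5 and 76.2%. No AL-old mouse came below 14.6% and no young mouse above 7.83%. The mean rose from 5.72% ± 1.91 (SD, n = 5) to 38.8% ± 22.7 (SD, n = 7), with a log2 odds ratio of 3.30 ± 0.68 (SE) and an adjusted p of 0.000403 (edgeR). Sox11 -319, 88 bases away, rose from 1.53% ± 0.548 to 16.6% ± 18.6, and Sox11 +113 in the 5′ UTR rose from 2.44% ± 1.52 to 22.2% ± 8.23, the last over only 3 AL-old mice.

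The only Sox2 site, +836 (3: 34549892 to 34549897, coding exon, inside the noncoding gene Sox2ot as well), read 0.275% in AL-young 30 and 0% in the other 4 young mice. Sox2 is a pluripotency factor that also keeps neural progenitors. In AL-old 09, AL-old 10 and AL-old 14 it read 16.3, 13.98 and 10.0%, all above the young. The other 4 AL-old mice had 24 to 38 reads and give no percentage, so the AL-old mean of 13.4% ± 3.19 (SD, n = 3) rests on 3 females with a high correction factor. The log2 odds ratio over all reads was 6.64 ± 1.00 (SE).

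Sox9, the factor of cartilage and of the testis, was called at 2 of 7 sites, both in the 5′ UTR. At +165 the AL-young mice had at most 0.595%, and the AL-old lowest, median and highest were 0, 1.92 and 28.4%. AL-old 13 held the highest value and AL-old 27 the next, 10.1%. The call was lost without AL-old 13 and with the high factor as a covariate (adjusted p up to 0.0603, edgeR). At +350 (11: 112643886 to 112643891) the mean rose from 0.747% ± 0.859 to 6.66% ± 5.71 (adjusted p = 0.0175, edgeR). Between them, Sox9 +251 was not called (adjusted p = 0.0745, edgeR), with 53.5% in AL-old 27 and 8.73% or less in the other AL-old mice.

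In Gata4, a heart and gonad factor, the island sites were -8 and -394 and the gene-body sites +12088 and +12359. Gata4 -8 (14: 63864114 to 63864119, in an intron of a longer transcript) read 0.844, 1.08, 1.14, 1.05 and 0.325% in the young mice. In AL-old it ran from 2.13% through a median of 6.09% to 14.2%, above every young mouse, and it was called (log2 odds ratio 2.90 ± 0.78 SE, adjusted p = 0.00736, edgeR), a call lost without AL-young 30 (adjusted p = 0.0623, edgeR). Gata4 -394 was not called, and AL-old 09 had 16.2% there while the other AL-old mice had 0.943 to 5.20%. The gene-body site +12088 read 92.3 to 93.7% in the young and 57.7 to 94.6% in AL-old, and +12359 read 67.9 to 78.2% and 35.6 to 85.8%. Neither was called, and the AL-old means were 81.7 and 61.8% raw but 88.2 and 71.4% adjusted.

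Gata6, which acts in heart, gut and lung, had 6 island sites, and 2 of them were called. Gata6 +386 (18: 11052892 to 11052897, intron) had enough reads in only 2 young mice, at 0 and 0.163%, and ran from 0 through 1.06 to 16.4% in AL-old (adjusted p = 0.0201, edgeR). The call was lost without AL-young 30 or AL-old 09 (adjusted p up to 0.0705, edgeR). Gata6 +1868 in the coding exon rose from 0.591% ± 0.410 to 4.33% ± 4.46 over 5 AL-old mice. The sites +1704, +1853, +2393 and +318 were not called, with AL-young means between 0.582 and 1.78%. In AL-old, +318 ran from 0 to 10.3%, the highest in AL-old 27, and +2393 read 10.0, 1.18, 19.7 and 7.55% in AL-old 09, 10, 14 and 25, the others having too few reads. At +1704 and +1853, AL-old 09 and AL-old 27 read 18.1 to 26.4% and the other AL-old mice at most 3.31%. Gata5, an endoderm and heart factor, had sites at +21 and -12, which lay between 0 and 2.14% in every mouse and were not called.

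**Figure D2:**
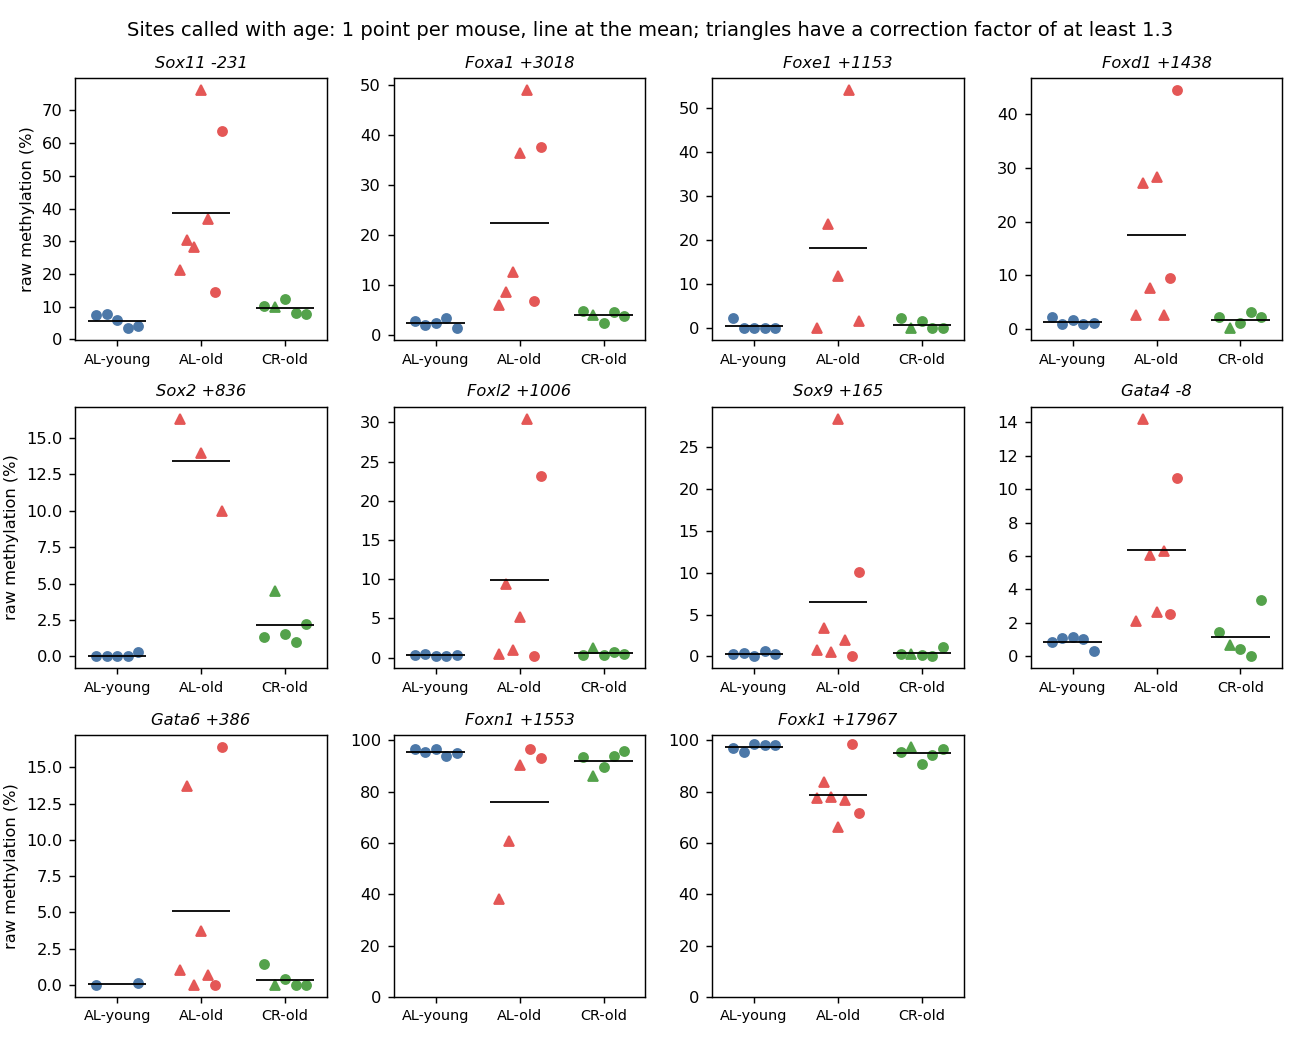
Raw methylation in percent by group at the sites with the largest called difference with age, 1 per gene; each point is a mouse, the line is the group mean, and triangles mark mice with a correction factor of at least 1.3. The AL-old points spread widely at the gaining sites (from 14.6 to 76.2% at Sox11 -231) while AL-young and CR-old points stay together.

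Lower methylation in AL-old was called at 3 member sites (2.61%), against 6.01% of all tested sites. All 3 lay in introns outside islands, where 3 of 16 member sites (18.8%) compare with 14.3% of tested sites outside islands. The Foxk1 pair lay about 18 kilobases into the gene. Foxk1 +17967 (5: 142895436 to 142895441) read 97.3, 95.4, 98.5, 98.4 and 98.1% in the young. In AL-old the lowest, median and highest were 66.3, 77.5 and 98.5%. AL-old 25 overlapped with the young and the other 6 lay below them (log2 odds ratio -3.32 ± 0.71 SE, adjusted p = 0.000578, edgeR). Foxk1 +17709 fell from 97.6% ± 1.05 (SD, n = 5) to 82.7% ± 7.51 (SD, n = 7), with every AL-old mouse below every young mouse. On the adjusted scale the means at +17967 were 97.4 and 86.5%.

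Foxn1 +1553 (11: 78198505 to 78198510) fell from 95.6% ± 1.12 to 75.9% ± 25.5 over 5 AL-old mice (adjusted p = 0.0149, edgeR). The low values were 38.1% in AL-old 08 and 60.9% in AL-old 10, and the other 3 stood at 90.3% or higher. The call was lost without AL-old 08, with the correction factor as an offset, with sex or the high factor as a covariate, with the low-factor mice alone and in limma on adjusted values.

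The other 94 member sites were not called in either direction. Over Foxk2 (4 sites), Foxp4 (3 sites) and Sox12 (6 sites), picked after their values were seen, the raw mean per mouse was at most 0.170% in all 17 mice. Adjusted, the AL-old means were 0.491, 0.236 and 0.686%, against 0.142, 0.102 and 0.278% in AL-young. These gaps hold the adjusted floor described above and are not read as gains with age. Foxp4 +355 read 0% raw in all 17 mice, but 0.97 and 0.94% adjusted in AL-old 08 and AL-old 13. In the young it read 0.03 to 0.17% adjusted. In Foxk1 the mean of the 3 island sites measured in all mice was at most 0.539% raw in each mouse. Of its 4 gene-body sites the intron pair was called lower, and the 2 about 55 kilobases into the gene were not called. Foxk1 +55153 went the other way on the adjusted scale, where the AL-old mice (73.6 to 88.9%) all lay above the young (65.1 to 73.5%). Across the members, 36 sites stayed below 1% in all 3 group means. Foxd2, with 9 sites the most densely covered gene, had an AL-old mean of 0.786% ± 1.29 over 8 sites, and AL-old 27 alone stood above 1%, at 3.70%. At 50 reads a count of 0 allows a share of up to 6%, so small gains at thinly covered sites were not detectable at this depth.

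A few island sites began at an intermediate level. Foxj1 +1073 in the gene of a factor for motile cilia read 12.2 to 25.3% in the young. In AL-old it read 25.6 and 32.5% in the males AL-old 25 and AL-old 27 and 2.02 to 5.26% in the 5 females with a high correction factor. On the adjusted scale those females read 6.16 to 10.4%, still below the young. Sox10 +907, in a neural crest gene, read 6.29 to 10.1% in the young against 17.4% in AL-old 27 and 0.143% in AL-old 13. Neither site was called.

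The AL-old mice were far from uniform. Over the 83 island sites with enough reads in all 17 mice, mean raw methylation per mouse lay between 0.956 and 1.44% in AL-young. In AL-old it was 0.926, 4.07, 1.93, 3.67, 3.98, 2.26 and 12.1% in the mice numbered 08, 09, 10, 13, 14, 25 and 27. AL-old 08 fell below the young range and AL-old 27 stood about 3 times above the next mouse. Adjusted, that gap was smaller, with 11.4% in AL-old 27, 8.50% in AL-old 13 and 8.22% in AL-old 09. AL-old 08 then read 3.15% and the 7 mice ran from 2.18 to 11.4%, all above the young maximum of 1.51%. The high levels were spread over different genes. Of the 55 island sites where some AL-old mouse reached 5%, AL-old 27 was the highest at 34, AL-old 09 and AL-old 14 at 7 each, AL-old 13 at 4, AL-old 25 at 2 and AL-old 10 at 1. On the adjusted scale AL-old 27 led at 22 of 62 such sites, AL-old 09 at 18 and AL-old 13 at 12.

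Sites where a single old mouse stood alone were chosen after their values were seen. Foxa2 +625, in the gene of the partner of Foxa1 in endoderm, read 75.3% in AL-old 27 and at most 7.99% in the other AL-old mice. At Foxa2 -17 the high mouse was AL-old 13 with 50.0%, ahead of AL-old 27 with 21.8%. Foxf1a -552 read 43.9% in AL-old 27 and at most 2.33% elsewhere. Foxb1 +2131 read 20.5% in AL-old 14, and its next value was 5.01%. None of these sites was called. Sox14 +720 and +509 were high in AL-old 14 and AL-old 27 (18.4 to 24.6%) and at 3.56% or below in the rest of that group.

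**Figure D3:**
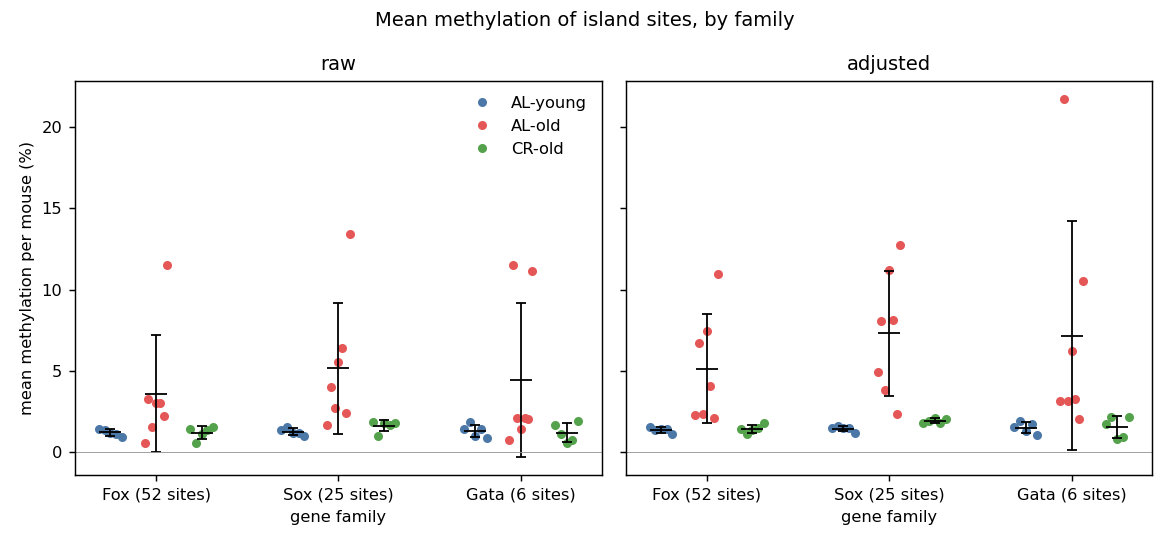
Mean methylation over the island sites of each family for each mouse (points), raw at left and adjusted at right, in percent, with the group mean and SD. The AL-old points spread from 0.583 to 13.4% on the raw scale while AL-young and CR-old points stay below 2% on that scale.

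By family, the level of the island sites was alike in the young: 1.20% ± 0.195 for Fox (52 sites), 1.26% ± 0.210 for Sox (25 sites) and 1.296% ± 0.383 for Gata (6 sites; SD, n = 5 each). In AL-old it was 3.60% ± 3.63, 5.16% ± 4.02 and 4.43% ± 4.73 (SD, n = 7). In CR-old it was 1.19% ± 0.393, 1.62% ± 0.354 and 1.19% ± 0.588 (SD, n = 5). Raw values of AL-old and AL-young overlapped for Fox and Gata, and all 7 AL-old mice lay above the young for Sox, the lowest at 1.68% against a young maximum of 1.56%. Adjusted, AL-old lay above AL-young in every mouse for all 3 families, and above CR-old in every mouse for Fox and Sox but not for Gata. Over all Gata sites measured in every mouse, gene-body sites included, the difference of AL-old from AL-young was -0.603 points raw and 3.21 points adjusted. These levels carry no test, since the genes were chosen with results known. Leaving out AL-old 27 took the difference of AL-old from AL-young over all island members from 2.90 to 1.58 points. Other island sites of the genome moved less in the same mice, with means of 3.39, 4.23 and 3.44% in the 3 groups over 10068 sites.

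The second comparison asked how old mice under caloric restriction differed from old mice fed ad libitum. Lower methylation in CR-old was called at 11 member sites (9.57%), against 1.76% of all tested sites, and all 11 were in islands (11.1% of island members, against 1.87% of tested island sites). They lay in Foxa1, Foxd1, Foxe1, Sox2, Sox9 and Sox11. All 4 Foxd1 sites and all 3 Sox11 sites were among them, and no Gata site was. This comparison shares its AL-old mice with the comparison by age.

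At Sox11 -231 the CR-old mice read 10.3, 9.90, 12.5, 8.01 and 7.63%, all below the AL-old minimum of 14.6%. Adjusted, CR-old 06 read 16.6% and CR-old 19 13.5%, above AL-old 25 with 13.2%. The difference was -29.1 points, with a log2 odds ratio of -2.45 ± 0.67 (SE) and an adjusted p of 0.0244 (edgeR). At Foxa1 +3018 the CR-old mice read 4.70, 3.91, 2.37, 4.57 and 3.76%, also below every AL-old mouse (adjusted p = 0.0329, edgeR). Adjusted, CR-old 06 read 6.95% and AL-old 25 6.11%, so that the groups overlapped. Foxd1 +1438 read 2.18, 0.211, 1.06, 3.12 and 2.16%, and overlapped with AL-old 08 and AL-old 14 (log2 odds ratio -3.19 ± 0.79 SE, adjusted p = 0.0118, edgeR). That site was the only one of the 6 named ones that remained past the threshold with any single mouse left out and under every other setting.

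Foxe1 +1153 read 2.27, 0, 1.65, 0 and 0% in CR-old, within the range of AL-old, whose higher mice reached 53.9% (adjusted p = 0.0127, edgeR). Sox2 +836 read 1.35, 4.52, 1.58, 1.00 and 2.20%, below all 3 AL-old mice with a value (adjusted p = 0.0117, edgeR). CR-old 06, the only restricted mouse with a high correction factor, was the highest of them. Sox9 +350 read 2.56, 0.394, 0, 0.645 and 0%, against an AL-old range from 1.40 to 16.5% that it overlapped (adjusted p = 0.0404, edgeR). In the Gata family, Gata4 -8 was lower in CR-old by 5.18 points with an adjusted p of 0.0501 (edgeR), and Gata6 +386 by 4.72 points with an adjusted p of 0.127 (edgeR).

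Higher methylation in CR-old was called at 1 member site (0.870%), against 1.58% of all tested sites and 3.7% of tested sites outside islands. This was Foxk1 +17967, with 95.5, 97.4, 90.9, 94.4 and 96.7% in CR-old, against a median of 77.5% and a maximum of 98.5% in AL-old (log2 odds ratio 2.28 ± 0.69 SE, adjusted p = 0.0451, edgeR). The call was lost with the correction factor as an offset, with sex or the high factor as a covariate, with the low-factor mice alone and in other settings, 17 of 25 in all, and its adjusted p ranged from 0.00311 to 0.646 over the alternatives. The count of 11 lower sites also depended on single mice. It was 6 without AL-old 09, AL-old 27, CR-old 02 or CR-old 19, 7 without AL-old 14, 4 without CR-old 22 and 2 without CR-old 20, where Foxd1 +1138 and +1438 were left.

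**Figure D4:**
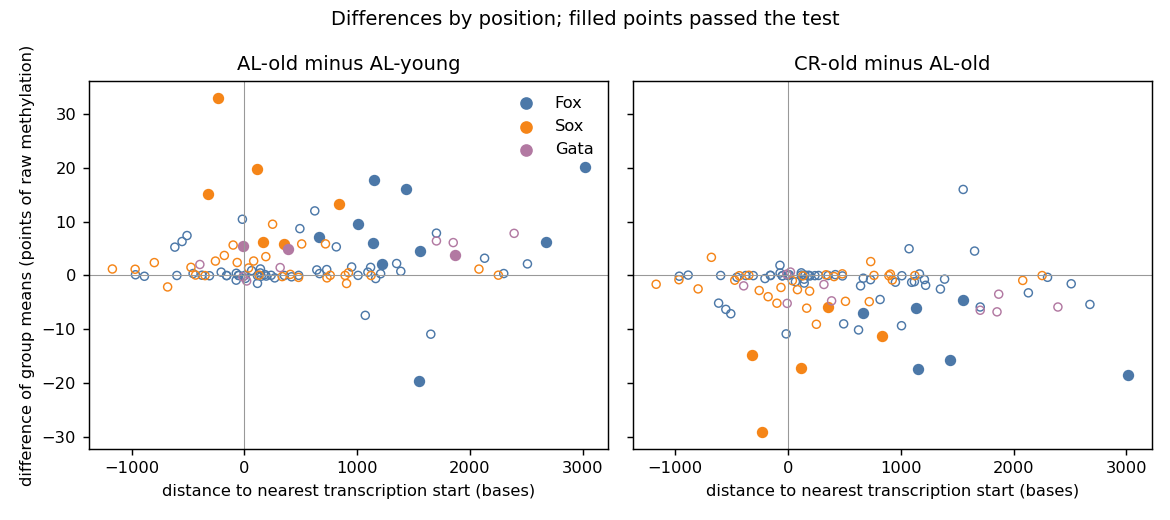
Difference of group means in points of raw methylation against the distance in bases from the nearest transcription start, for 107 member sites; 8 sites farther away, in the bodies of Foxk1, Sox5 and Gata4, are not drawn. Filled points passed the test, at left AL-old minus AL-young (up to 33.0 points) and at right CR-old minus AL-old (down to -29.1 points), both before and after the start.

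The third comparison set old mice under restriction beside young mice fed ad libitum. No member site was called in either direction (0.0% of all 18884 sites were called higher and 0.0% lower with edgeR). Of the 115 sites, 3 had an unadjusted p under 0.05 (edgeR), namely Foxf2 -71, Foxk1 +17709 and Sox2 +836. That is fewer than the 1 in 20 that such a threshold passes where nothing differs, and the share over all tested sites was not counted. In limma on adjusted values no member site was called either. When only these 2 groups entered the fit, Sox2 +836 was called higher and Foxk1 +17709 and Sox5 -51633 lower in CR-old. Sox2 +836 was the only site where all CR-old mice lay above all young mice in raw methylation, with means of 2.13% ± 1.40 and 0.0550% ± 0.123 (SD, n = 5 each). It had 74 to 155 reads per CR-old mouse, so these levels rest on few methylated reads. How many of all tested sites had groups so separated was not counted, here or for the sites below. Such separation is therefore not read as a result about the members. In raw methylation Sox5 -51633, in the body of a gene of cartilage and nerve development, lay below the young in every CR-old mouse, with 90.5% ± 3.44 against 96.3% ± 0.853. Adjusted, CR-old 06 read 96.4% there, inside the young range of 95.6 to 97.1%. Foxk1 +55024 lay below the young in every CR-old mouse on both scales. Its adjusted values were at most 79.96% in CR-old and at least 80.44% in AL-young. The median difference over the members was 0.0 points, against -0.0503 points over all tested sites. With 5 mice a group, a p that misses the threshold does not show that the groups were alike.

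Adjusted methylation was also ranked against age over the 12 AL mice. A site was marked where Spearman's r reached 0.5 in either direction, its empirical p over 1000 random orders of the ages was under 0.05, and methylation averaged 1% or more. It has no correction for the number of sites, and with 1 young age it is close to a comparison of old with young. A site also needed a value in at least 10 of the 12 AL mice to be marked. The ranking marked 35 member sites as rising with age out of 82 that met the mean (42.7%), against 20.9% over all sites. Falling sites numbered 4 (4.88%), against 10.4%. The 82 include sites with too few AL mice, which could not be marked. The shares over all sites leave such sites out, so the denominators differ. The member shares are therefore lower than those among member sites that could be marked. Beyond the genes above, rising sites stood in Foxa2 (2 sites), Foxc1 (2), Foxd2, Foxf2, Foxk1, Foxl1, Sox6, Sox14 (3) and Sox21 (3). The falling sites were Foxa3 +117, both Foxk1 intron sites and Gata4 +12088. Foxa3 +117 in the 5′ UTR of a liver factor averaged 2.17% before and 0.698% with age, which edgeR did not call (adjusted p = 0.0597).

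The called gains were found on both sides of the start. Of the island members between 1000 bases before and 500 bases after the start of any gene, 7 of 64 (10.9%) were called higher with age, against 5.14% of all tested island sites so placed. Of the other island members it was 10 of 35 (28.6%), against 6.7%. The 10 include all 4 Foxd1 sites, which share 1 island. No test was made of the difference by position. Counted per site, the 17 island sites called higher lay in islands of a median of 2482 bases with 53 CpGs per 500 bases. For the 82 island members not called it was 1786 bases and 47.5 CpGs. The 17 sites came from only 9 genes, and 2482 bases is the length of the Foxd1 island, which holds 4 of them. The AL-young medians of the called and uncalled sites were close, 0.492 and 0.439%. Their AL-old medians were 7.60 and 1.40%, a gap set by the call itself, which asks for a gain of at least 2 points. Of the 34 sites nearest to a start, 1 per gene and some of them outside islands, 5 were called higher with age and 11 stayed below 1% in all group means.

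Fox and Gata genes outside the list, such as Foxo1, Foxo3, Foxj2, Gata2 and Gata3, had 57 tested sites in 13 genes, several of them known to act in blood. None was called higher with age by edgeR, 1 was called lower (in Foxn3), and 1 was lower in CR-old than in AL-old (in Foxo3). Genes of the Polycomb complexes and of an H3K27 demethylase had 32 sites in 9 genes, with 0 called higher and 3 lower with age, in Kdm6b, Pcgf2 and Phc2, and none with diet. Marker genes of lymphoid cells had 17 sites in 5 genes, with 5 called higher (4 in Bcl11b, a T cell factor, and 1 in Tcf7) and 1 lower (Cd3g) with age, and 2 called lower with diet. Those of myeloid cells had 12 sites in 4 genes, with 1 called lower with age (Itgam). Over all tested sites, 3.95% were called higher and 6.01% lower with age, and 1.76% lower with diet. The share of lymphoid sites called higher with age was above the 15.7% of the member sites. The mean over the lymphoid sites per mouse ran from 31.6 to 33.1% in AL-young, 25.3 to 36.5% in AL-old and 28.6 to 35.4% in CR-old, and over the myeloid sites from 30.9 to 33.5%, 18.98 to 37.2% and 18.8 to 27.02%. Adjusted means were 32.6, 37.3 and 32.9% over the lymphoid sites in the same order of groups, and 32.7, 32.1 and 23.9% over the myeloid sites. The part of cell type shares in the results above was not tested.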

How the data were processed

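The authors aligned the reads to mm9 and deposited a table per mouse with, at every CCCGGG, counts of methylated and unmethylated reads and the raw and adjusted methylation in percent. The submitters' notes name Bowtie2 and SAMtools. Positions were checked against NCBIM37 (all 173449 sites matched), and genes came from GENCODE M1. Raw percentages here are methylated over all reads, missing under 50 reads. Islands had at least 200 bp, 50% GC and a CpG content at least 0.6 of expectation.

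Counts were tested with edgeR 4.0.16 in R 4.3.3 over all 17 mice, with 1 coefficient per mouse, 1 methylation coefficient per group and a common dispersion, checked on simulated data. limma 3.58.1, Python 3.11.15, numpy 2.4.6, pandas 2.3.3, scipy 1.17.1 and matplotlib 3.10.9 were also used. Named sites were the called sites with the largest differences, up to 12 (age) or 6 (diet) per direction and 1 per gene, plus 1 reference site per gene, genes with 3 or more called sites, and all Gata sites. At 25 of 50 reads the 95% Wilson interval runs from 36.6 to 63.4%, counting error only. Each sample was 1 mouse, and p-values measure the spread between these mice. Members and lists were chosen with earlier results of these data known.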

Additional observations from a re-analysis of the deposited data

Results flagged for a closer look

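A mouse that stood apart from its group by more than Dixon's test allows was found 9 times in 46 groups of family levels and named sites. The test's rate of 1 in 20 assumes normal values. Named sites were picked for large differences, and several flags set a few methylated reads against 0% in the other mice. The count of 9 was therefore not compared with that rate. AL-old 27 was the highest at the Fox island level (11.5%, next 3.25%) and at the Sox island level (13.4%, next 6.38%). Adjusted, the values were 10.9% (next 7.47%) and 12.7% (next 11.2%), closer together. CR-old 06 was the lowest at the Sox island level, at 1.01% raw (next 1.64%), where its correction factor was the highest of its group, and adjusted it read 1.89%, inside the range of the others. AL-old 13 was the highest at Sox9 +165, at 28.4%. The others were at low levels: AL-young 15 at Foxe1 +1153 with 2.38%, AL-young 30 at Sox2 +836 with 0.275%, CR-old 02 at Gata6 +386 with 1.44% and at Sox9 +350 with 2.56%, and CR-old 22 at Sox9 +165 with 1.18%.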

How the results depend on the processing

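No paired analysis was possible because the mouse numbers in the labels are unique and pair no mice. The 18 sites called higher with age became 31 with the correction factor as an offset, 29 with the class of the factor, high or low, in the model, 36 with the low-correction mice alone (which leaves 2 AL-old mice) and 38 in limma on adjusted values, and 12 to 22 without 1 mouse. Those 2 mice were AL-old 25 and AL-old 27, and AL-old 27 had the highest island mean of the group (12.1% raw). The 3 lower ones became 1 with the low-correction mice alone and 2 to 4 without 1 mouse. The 1 site higher in CR-old became 0 with the offset, with either covariate (correction or sex), with the low-correction mice, with only the compared groups and in limma. It became 0 to 2 without 1 mouse: 0 without AL-young 15, without AL-old 08, 09, 10, 13 or 14 or without any CR-old mouse, and 2 without AL-old 25. The 11 sites lower in CR-old became 25 with the offset, 26 in limma, 4 with only the compared groups and 2 to 16 without 1 mouse. Of these, Sox11 -231 and Foxa1 +3018 lost the diet call in 9 of 25 settings each. Among those were the class of the factor in the model and the low-correction mice alone, and for Sox11 -231 also sex as a covariate. Sox9 +350 lost it in 11 of 25, among them sex and the low-correction mice, and Foxe1 +1153 lost it with the low-correction mice. CR-old against AL-young went from 0 to 1 higher and 2 lower with only the compared groups. The 35 rising and 4 falling sites became 21 and 1 on raw methylation. Over all sites of a family, the Fox difference with age became 5.032 points with the low-correction mice. The Gata one, -0.603 points raw and 3.21 adjusted, became -6.221 points at 100 reads. That was a change of site set: Gata4 -8 and -394 and Gata6 +1704 and +1853 had under 100 reads in some mouse. The gene-body sites of Gata4 and the Gata5 sites were left. With reads summed over sites the Gata difference with age was -6.787 points. In that setting the diet difference of the Gata sites changed sign, from -0.875 to 5.596 points. These differences carry no test. The levels without AL-old 27 were added after seeing the data. No called result changed direction, and the cause of the other shifts was not tested. Depth limits sites near 50 reads, and 20 of the 115 sites lacked 50 reads in some mouse.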
